A study of Mus musculus with 4 samples.

Results

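The genes described here are 7 galectins and a galectin-binding protein, 8 genes in all out of 22180 genes with a probe set annotated to 1 gene on mouse expression arrays. They were taken by symbol (Lgals1, Lgals2, Lgals3, Lgals4, Lgals8, Lgals9, Lgals12 and Lgals3bp), and all 8 were found. Only Lgals3bp had more than 1 such probe set (2), and it is represented by whichever had the higher mean value. The family was chosen by the differences of Lgals12 between these same arrays, in KO mice with and without metformin and between genotypes under vehicle, so the values of Lgals12 are a description and carry no test.

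RNA came from the gastric corpus, the acid-secreting part of the stomach, of mice aged 8 to 10 weeks that received daily intraperitoneal injections for 14 days. The 4 groups were AMPK KO mice given metformin at 300 mg/kg, AMPK KO mice given saline vehicle, WT (C57BL/6) mice given metformin at 300 mg/kg, and WT mice given saline vehicle. The KO mice carried Atp4b-cre with floxed alleles of Prkaa1 and Prkaa2, so the deletion was driven from a promoter of parietal cells, and other cells of the corpus keep both genes. They were on a mixed background (B6/FVB crossed to B6), so genotype and strain background cannot be told apart. Each group was measured on 1 array, and the labels do not state the number of animals behind it. Differences between arrays are therefore sizes without a replicate check.

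Galectins are small lectins that bind sugars carrying galactose at the cell surface, in the extracellular matrix and on damaged vesicles inside cells. Galectin-1 and galectin-2 have a single sugar-binding domain and pair up, galectin-3 joins such a domain to a flexible tail, and galectins 4, 8, 9 and 12 carry a pair of linked domains. In the digestive tract, galectins 2, 3 and 4 are known from epithelial cells and galectin-1 from connective tissue, whereas galectin-12 is known mainly from fat cells, where it sits on lipid droplets and restrains fat breakdown. The AMP-activated protein kinase (AMPK) is a sensor of cellular energy, and metformin is a glucose-lowering drug that activates it in many cells.

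The arrays as a whole set the scale for the family. Over the 11090 genes whose mean log2 value reached 5.03, the median of gene means, correlations between pairs of arrays ran from 0.905 (KO vehicle with WT vehicle) to 0.971 (KO metformin with WT metformin). All 8 members passed this filter, and each was above 5.03 on every array. The targeted gene Prkaa1 had 8.66 on the KO metformin array, 8.18 on KO vehicle, 8.90 on WT metformin and 9.46 on WT vehicle, and Prkaa2 had 7.52, 7.19, 8.02 and 8.90 on the same arrays. Corpus markers were high throughout, with the proton pump subunit Atp4b between 13.01 and 13.44 and the pit cell gene Gkn2 between 13.84 and 13.91. Because the RNA is from whole tissue, fewer cells of a type and less RNA per cell cannot be told apart.

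Lgals9 and Lgals3bp are known as interferon-inducible genes, and 6 of the 8 members had an entry among RefSeq promoter windows (GRCm38.p6, 250 bases before to 50 after a transcript start). The windows of Lgals9 and Lgals3bp are shown because of that known induction. They run to base 30 after the start, on the strand of the gene, with matches to GAAA, any 2 bases and GAAA, the core of the interferon-stimulated response element, in capitals where present.
Lgals9, chr11:78984895-78985174, minus strand: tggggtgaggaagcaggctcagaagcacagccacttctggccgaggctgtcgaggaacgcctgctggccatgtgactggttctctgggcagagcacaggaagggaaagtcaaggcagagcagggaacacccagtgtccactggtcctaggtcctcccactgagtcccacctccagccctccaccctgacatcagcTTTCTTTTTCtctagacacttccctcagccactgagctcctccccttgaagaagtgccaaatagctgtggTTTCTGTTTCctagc
Lgals3bp, chr11:118401930-118402209, minus strand: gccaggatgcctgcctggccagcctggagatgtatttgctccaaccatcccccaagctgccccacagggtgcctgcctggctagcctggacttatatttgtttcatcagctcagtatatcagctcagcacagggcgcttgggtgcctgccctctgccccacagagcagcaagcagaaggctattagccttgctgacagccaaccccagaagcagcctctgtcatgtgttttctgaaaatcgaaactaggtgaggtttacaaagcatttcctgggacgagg
The full windows were searched on both strands. Lgals9 held 2 matches, both on the reverse strand, with first letters 55 bases before and 15 bases after the start. No match to these letters lay in the windows of the other 5 members with an entry. Among all 32851 windows, 3.44% held at least 1 match and 0.225% held at least 2, and among listed interferon response genes 7 of the 12 with a window held one. These matches are letters in a window and not binding sites.

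Lgals12 was low on a single array. Its log2 value was 10.65 on KO metformin, 8.20 on KO vehicle, 10.10 on WT metformin and 10.76 on WT vehicle. The KO vehicle array lay 1.89 below the next lowest, and the other 3 arrays lay within 0.66 of each other. The order from low to high was KO vehicle, WT metformin, KO metformin, WT vehicle, and with 1 array a group no step in that order can be set against a replicate spread.

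In the AMPK KO mice, Lgals12 was 5.43-fold higher with metformin than with vehicle (log2 difference 2.44), where 2.44% of the 11090 genes were higher by 2-fold or more. It was the 9th highest of all of them. In the WT mice the difference between metformin and vehicle was -0.66, inside 2-fold, and 0.929% of genes were lower by 2-fold or more. The KO response minus the WT response came to 3.10, the 8th highest, in a comparison where 11.2% of genes were at or above 1 and 14.8% were past 1 in either direction.

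Between genotypes, Lgals12 was 5.87-fold lower in KO than in WT under vehicle (log2 difference -2.55), where 8.12% of genes were lower by 2-fold or more. It was the 14th lowest of 11090 genes. Under metformin the KO array was higher than WT by 0.55, inside 2-fold, and 0.532% of genes were higher by 2-fold or more. The KO response and the vehicle comparison share the KO vehicle array, so their large differences rest on the same low value. The comparisons that do not use this array gave -0.66 and 0.55.

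**Figure D1:**
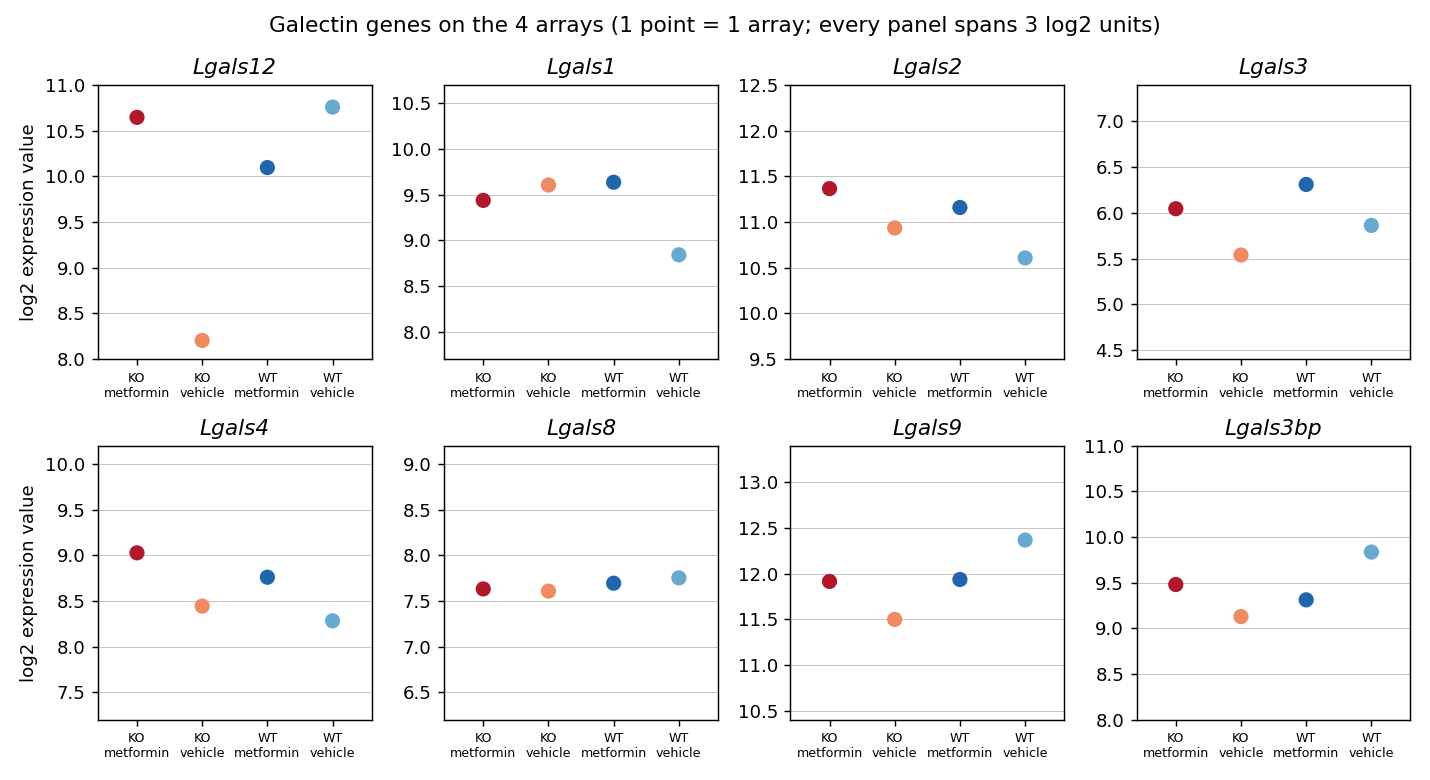
Log2 expression values (vertical axis, arbitrary array units) of the 8 genes on the 4 arrays (horizontal axis, 1 point per array, no error bars because each group has 1 array). Every panel spans the same 3 log2 units, and Lgals12 alone has a point far from its others, at 8.20 on the KO vehicle array.

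The other members moved over less than 1 log2 unit. Their range over the 4 arrays was between 0.15 (Lgals8) and 0.87 (Lgals9), against 2.55 for Lgals12 and a median of 0.54 over genes past the filter. The range of Lgals12 was the 31st largest of 11090 genes. KO vehicle was the lowest array for 5 of the 8 members, and it was the lowest for 44.3% of genes past the filter.

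Lgals1, which encodes galectin-1, a product of connective tissue cells that dampens T cell responses, was low on another array than Lgals12. Its values were 9.44 on KO metformin, 9.60 on KO vehicle, 9.63 on WT metformin and 8.84 on WT vehicle. WT vehicle was the low array, 0.60 below the next, and the other 3 lay within 0.20. The difference between metformin and vehicle was -0.17 in KO and 0.79 in WT, and KO differed from WT by 0.76 under vehicle and -0.20 under metformin.

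Lgals2 encodes galectin-2, a lectin made by the gastrointestinal epithelium. It had 11.37 on KO metformin, 10.93 on KO vehicle, 11.16 on WT metformin and 10.61 on WT vehicle. Metformin was above vehicle in both genotypes, by 0.43 in KO and 0.55 in WT. KO was above WT by 0.33 under vehicle and 0.21 under metformin.

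Lgals4 encodes galectin-4, an epithelial lectin of the digestive tract that takes part in sorting proteins to the apical membrane. Its values were 9.03 on KO metformin, 8.44 on KO vehicle, 8.76 on WT metformin and 8.28 on WT vehicle. The arrays ran in the same order as for Lgals2, with metformin above vehicle by 0.58 in KO and 0.48 in WT. The differences of KO from WT were 0.16 under vehicle and 0.27 under metformin.

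Lgals3 encodes galectin-3, found in many epithelia and in macrophages. It had 6.05 on KO metformin, 5.54 on KO vehicle, 6.31 on WT metformin and 5.86 on WT vehicle. Metformin was again above vehicle in both genotypes, by 0.51 in KO and 0.45 in WT, while KO was below WT by a log2 difference of -0.32 under vehicle and -0.27 under metformin. Lgals2, Lgals3 and Lgals4 were thus the members with a positive difference between metformin and vehicle in both genotypes, all inside 2-fold. These signs held under cyclic loess, median centring and removal of the trend on gene span.

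Lgals9 encodes galectin-9, a ligand of the T cell receptor Tim-3 that also attracts eosinophils. It had 11.91 on KO metformin, 11.50 on KO vehicle, 11.94 on WT metformin and 12.37 on WT vehicle. The metformin arrays of both genotypes lay within 0.02 of each other and between the vehicle arrays, of which KO was lower by a log2 difference of -0.87. Metformin against vehicle gave 0.42 in KO and -0.43 in WT.

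Lgals3bp encodes a secreted glycoprotein that binds galectin-3 and is not itself a galectin. Its values were 9.48 on KO metformin, 9.13 on KO vehicle, 9.31 on WT metformin and 9.84 on WT vehicle. As with Lgals9, the vehicle arrays were the extremes, with a KO minus WT difference of -0.71, and metformin against vehicle gave 0.35 in KO and -0.52 in WT. The second probe set of this gene, which was not used, gave -0.85 for KO against WT under vehicle, 0.50 for metformin against vehicle in KO and -0.08 in WT. Under metformin the 2 probe sets differed in sign for KO against WT, at 0.17 for the one used and -0.28 for the other.

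Lgals8 encodes galectin-8, which marks damaged vesicles for removal by autophagy. It had 7.63 on KO metformin, 7.61 on KO vehicle, 7.69 on WT metformin and 7.75 on WT vehicle. Its range of 0.15 was smaller than that of all but 3.18% of genes past the filter.

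Across the family, 1 of 8 members was past 2-fold for metformin against vehicle in KO and 1 of 8 for KO against WT under vehicle, and both times it was Lgals12. The count was 0 of 8 for metformin against vehicle in WT and 0 of 8 for KO against WT under metformin. In either direction 3.06% and 10.4% of genes were past 2-fold in the first pair of comparisons and 1.7% and 0.92% in the second. The median difference of the members was 0.42 for metformin against vehicle in KO (0.11 over all genes past the filter) and 0.19 in WT (-0.14 over genes). It was -0.23 for KO against WT under vehicle (-0.22 over genes) and 0.07 under metformin (0.02 over genes). The medians over genes are not at 0 and move with the scaling of the arrays, to -0.07 for the vehicle comparison after cyclic loess and to -0.37 with each array centred on its median. Relative to the gene median, Lgals12 differed by -2.34 and Lgals1 by 0.98 in that comparison.

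**Figure D2:**
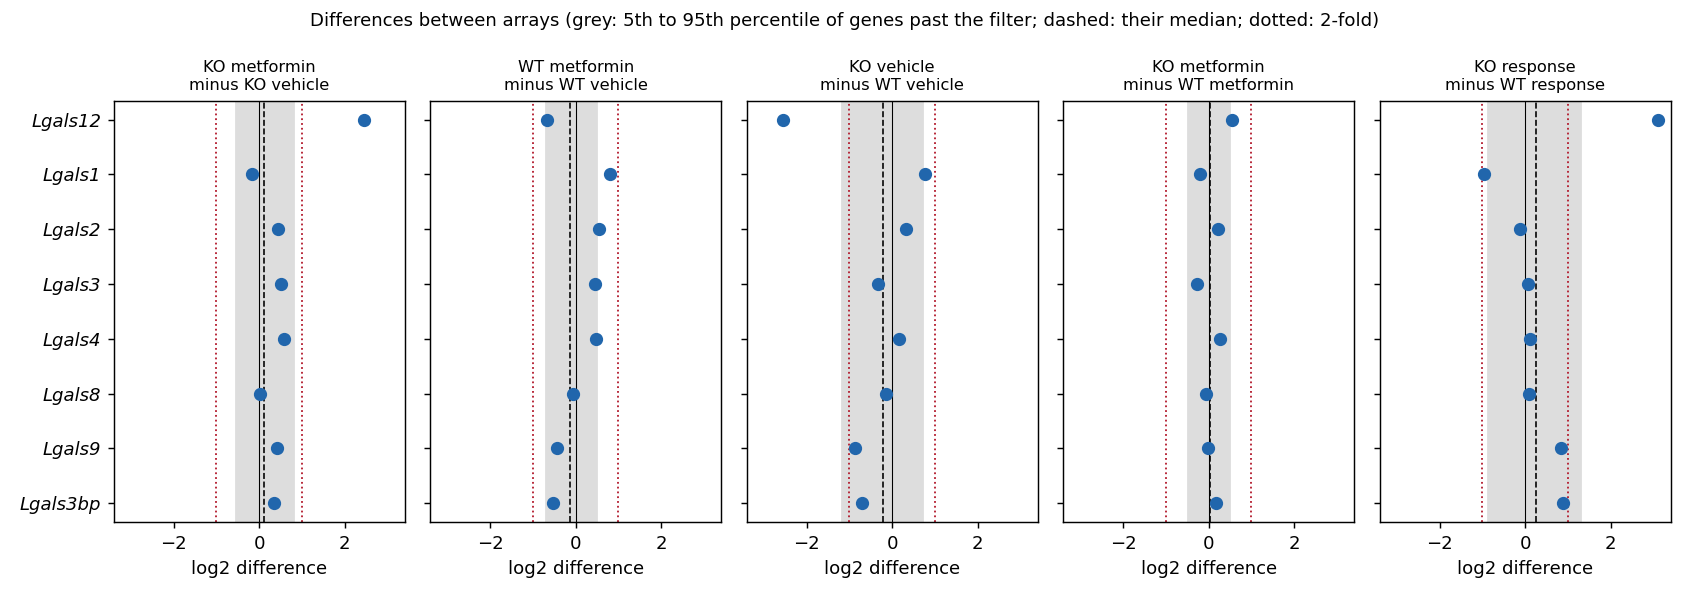
Log2 differences (horizontal axes) of the 8 genes (rows) in the 5 comparisons. The grey band runs from the 5th to the 95th percentile of 11090 genes, the dashed line is their median and dotted lines mark 2-fold; Lgals12 lies at 2.44, -0.66, -2.55, 0.55 and 3.10 from left to right.

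Effects averaged over both levels of the other factor were fitted with limma over the 11090 genes. The fit sets 2 arrays against 2 and leaves 1 residual degree of freedom. For each gene that degree of freedom is the difference between the KO and WT responses. The SE and p-values therefore do not measure a spread between replicate arrays. None of the 7 members tested (Lgals12 was left out of the test) passed an adjusted p under 0.05 or an unadjusted p under 0.05, for genotype or for treatment. Over all genes 5 (0.0451%) passed the adjusted threshold for genotype and 0 (0%) for treatment, with 374 and 32 at an unadjusted p under 0.05. The highest average effect of metformin was that of Lgals4, 0.53 ± 0.30 (SE, limma adjusted p = 1). The average effect of KO on Lgals9 was -0.44 ± 0.33 (SE, limma adjusted p = 0.9995).

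The genes nearest to Lgals12 in pattern were sought among 10547 other protein-coding genes past the filter, by the root mean square distance between the 4 log2 values after each gene was centred on its own mean. The 5 nearest were Dapp1, an adaptor of phosphoinositide signalling in lymphocytes (0.067), Trp53i11 (0.10), Asb13, of the family of SOCS box proteins (0.16), the fatty acid elongase Elovl6 (0.17) and Coq5, an enzyme of ubiquinone synthesis (0.17). The median distance over all compared genes was 0.97, and 12 genes lay within 0.25. Dapp1 had 8.23 on KO metformin, 5.97 on KO vehicle, 7.82 on WT metformin and 8.49 on WT vehicle. All 5 were lowest on the KO vehicle array, by construction of the measure. Among the other members, Lgals9 was the closest to Lgals12 (0.77, rank 1374) and Lgals1 the most distant (1.24, rank 9926). These likenesses rest on 4 arrays.

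**Figure D3:**
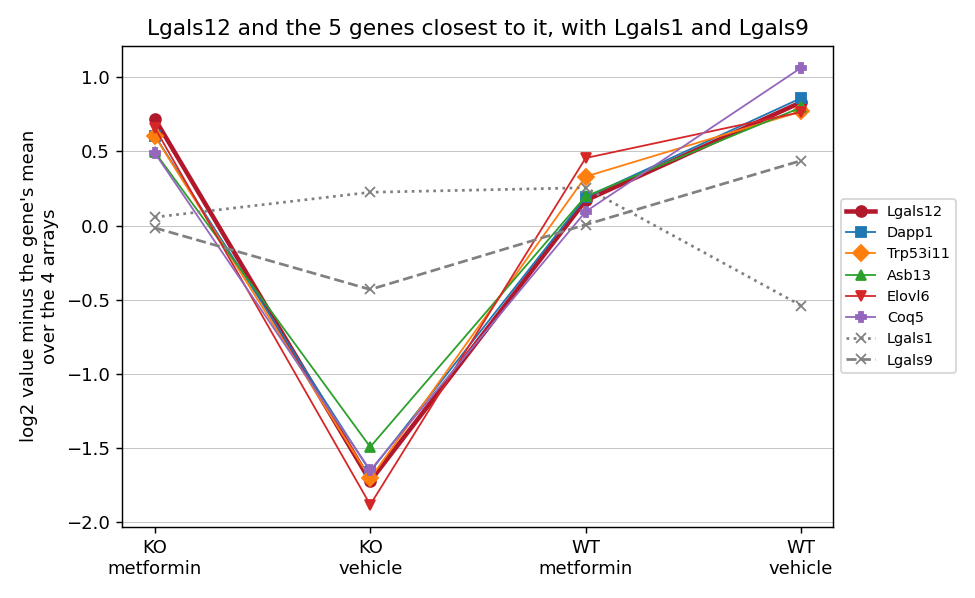
Log2 values minus each gene's own mean over the 4 arrays (vertical axis) on each array (horizontal axis) for Lgals12, the 5 genes closest to it, and Lgals1 and Lgals9 in grey. Lines only join the points of a gene; the 6 coloured genes share the low KO vehicle point and Lgals1 has its low point on WT vehicle.

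Markers of cells that could carry galectins were set beside these values, over all measured genes of each list, and their part in the results was not tested. Of 12 measured fat cell markers, 4 (Adipoq, Plin4, Pparg and Trarg1) were lowest on KO vehicle, the low array of Lgals12, where 29.4% of all genes were lowest. Of the 12, 8 passed the filter, among them Fabp4 (8.60 to 9.89 over the 4 arrays) and Pparg (8.11 to 8.37). Adiponectin (Adipoq) and leptin (Lep), which define fat cells, were the only 2 under 5.03 on all 4 arrays. Adipoq was at 3.76, 3.65, 3.87 and 3.66 on KO metformin, KO vehicle, WT metformin and WT vehicle. The mean log2 level of the 12 measured markers was 5.70 on KO metformin, 5.86 on KO vehicle, 6.00 on WT metformin and 5.82 on WT vehicle. For metformin against vehicle in KO, 0 of 12 were higher and 1 lower by 2-fold or more (Car3, -1.34), with a median of 0.03, where 1.53% of all 22180 genes were higher and 0.983% lower. For KO against WT under vehicle, the fatty acid carrier Fabp4 was higher (1.29) and the lipid droplet coat gene Plin4 lower (-1.21), with a list median of -0.01, where 2.69% of all genes were higher and 4.55% lower. For metformin against vehicle in WT, 0 of 12 were past 2-fold (median 0.21), where 0.667% of all genes were higher and 0.676% lower.

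Genes of lipid droplets and lipolysis, the setting in which galectin-12 is known, were mixed. None of 20 measured genes was past 2-fold for metformin against vehicle in KO (median 0.24), with Dgat1, which makes triglyceride, at 0.77 and the protein kinase A catalytic subunit Prkaca at 0.73 as the highest and Cidea at -0.88 and Plin1 at -0.55 as the lowest. For KO against WT under vehicle 3 of 20 were lower by 2-fold or more, namely Plin4, Prkaca (-1.16) and the monoglyceride lipase Mgll (-1.10), and none was higher (median -0.03). The median over all genes was -0.02 and 0.03 in these comparisons. In the first, 1.53% of all genes were higher and 0.983% lower by 2-fold or more. In the second, 2.69% of all genes were higher and 4.55% lower, and 8.12% of genes past the filter were lower. Vps13c, a lipid transfer protein known as a partner of galectin-12, had differences of 0.27 and 0.04.

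Macrophage markers, 10 of 10 measured and all past the filter, had medians of -0.05 for metformin against vehicle in KO and 0.01 for KO against WT under vehicle. The mean log2 level of the list was 6.50 on KO metformin, 6.58 on KO vehicle, 6.63 on WT metformin and 6.65 on WT vehicle. Their members went different ways. The complement gene C1qb (0.73 in the KO response and -0.83 in the vehicle comparison), the mannose receptor Mrc1 (0.20 and -0.97), Csf1r, the receptor of macrophage colony-stimulating factor (0.30 and -0.54), and Mpeg1 (0.11 and -0.58) had the signs of Lgals12. Lysozyme (Lyz2) had the opposite signs, at -1.01 and 1.46, as did C1qc (-0.60 and 0.35), Adgre1 (-0.35 and 0.31) and Cd163 (-0.21 and 0.03). Cd68 was positive in both comparisons and C1qa negative in both.

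Markers of squamous epithelium, which lines the neighbouring forestomach, had their highest mean on the KO metformin array. For metformin against vehicle in KO 9 of 15 measured markers were higher by 2-fold or more (median 1.67), led by Krtdap (4.69) and Krt4 (3.55). Of all genes, 1.53% were higher by 2-fold or more there. The keratins Krt15 (-0.65) and Krt14 (-0.17) went the other way and were highest on KO vehicle, both under 5.03 on all 4 arrays. Only 6 of the 15 passed the filter, among them Krtdap, which was above 5.03 on KO metformin alone. Krtdap and Krt4 were low on KO vehicle, at 4.43 and 3.70. The mean log2 level of the list was 6.19 on KO metformin, 4.47 on KO vehicle, 4.26 on WT metformin and 3.98 on WT vehicle. Lgals7, the galectin of stratified epithelia, was under the filter value on all 4 arrays, at 4.28, 3.78, 3.97 and 3.61 in the same order. On the WT vehicle array the mean of this list was lowest and Lgals12 was highest, and a link between them was not tested.

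Among surface pit cell markers, 0 of 7 were past 2-fold for metformin against vehicle in KO (median 0.12) or in WT (0.06) and 0 of 7 for KO against WT under vehicle (-0.16). Of genes past the filter, as all 7 are, 3.06%, 1.7% and 10.4% were past 2-fold in either direction in these comparisons. The mean log2 level of the list was 12.00 on KO metformin, 11.65 on KO vehicle, 11.98 on WT metformin and 11.85 on WT vehicle. Gkn1, Gkn2, Tff1 and Psca lay between 13.01 and 13.91 on every array, near the top of the arrays' range. Capn8 and Capn9 had lower levels, and for metformin against vehicle in KO they had 0.76 and 0.64. KO vehicle was the lowest array for 6 of the 7, where it was the lowest for 44.3% of genes past the filter. Muc5ac, the mucin of pit cells, had 0.83 for metformin against vehicle in KO and 0.04 in WT, beside 0.43 and 0.55 for Lgals2 and 0.58 and 0.48 for Lgals4.

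Parietal cell markers, the cells in which the deletion was made, had a mean log2 level of 9.86 on KO metformin, 9.66 on KO vehicle, 9.76 on WT metformin and 10.09 on WT vehicle. The highest mean was on WT vehicle and the lowest on KO vehicle. The same extremes held for the members Lgals8, Lgals9, Lgals12 and Lgals3bp and for the lists of glycan synthesis and binding partners. They also held for the median over genes past the filter, at 6.76 on WT vehicle and 6.50 on KO vehicle. KO vehicle was the lowest array for 8 of the 12 markers, where it was the lowest for 44.3% of genes past the filter. Of 12 genes, 2 were lower by 2-fold or more for KO against WT under vehicle, Aqp4 (-1.54) and Slc9a4 (-1.44). Of genes past the filter, as all 12 are, 8.12% were lower by 2-fold or more there. The list median was -0.36. For metformin against vehicle the median was 0.15 in KO and -0.25 in WT, with 0 of 12 past 2-fold each time. Over genes past the filter 3.06% and 1.7% were past 2-fold in either direction.

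Fibroblast markers, from cells known to make galectin-1, were mixed. For KO against WT under vehicle Mgp (1.59) and the collagen chain Col1a1 (0.89) were the highest and Dcn (-1.29) and Pdgfra (-1.11) the lowest of 9 genes, with 1 past 2-fold upward, 2 downward and a median of -0.12. Of genes past the filter, as all 9 are, 10.4% were past 2-fold in either direction there and 8.12% were lower. The mean log2 level of the list was 8.53 on KO metformin, 8.45 on KO vehicle, 8.67 on WT metformin and 8.47 on WT vehicle. Both vehicle arrays were thus at nearly the same mean. Of the 9, 4 (Col1a1, Col1a2, Col3a1 and Mgp) were lowest on WT vehicle, as Lgals1 was, and the other 5 were lowest on KO vehicle. Over all genes 31.2% were lowest on WT vehicle and 29.4% on KO vehicle, and 44.3% of genes past the filter were lowest on KO vehicle. For metformin against vehicle the list median was 0.10 in KO and 0.095 in WT, with 5 of 9 above 0 each time. Over genes past the filter 61.7% were above 0 in KO and 34.6% in WT. Col1a1 had -0.12 in KO and 0.82 in WT, beside -0.17 and 0.79 for Lgals1. Col1a2, Col3a1 and Mgp had the same signs as Lgals1, whereas Dcn (0.52 and -0.68), Pdgfra (0.10 and -0.45), Lum and Vim had the opposite signs.

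Interferon response genes ran against Lgals9 and Lgals3bp. For KO against WT under vehicle all 15 measured genes were above 0 and 6 were higher by 2-fold or more, with a median of 0.84, led by the ubiquitin-like modifier Isg15 (2.23) and the antiviral enzyme Oas2 (1.82), beside -0.87 for Lgals9 and -0.71 for Lgals3bp. Of all genes, 52.5% were above 0 there (33.0% of those past the filter) and 2.69% were higher by 2-fold or more. For metformin against vehicle in KO 14 of 15 were below 0 and 5 were lower by 2-fold or more (median -0.77), beside 0.42 and 0.35 for these members. Of all genes, 51.9% were below 0 there (38.2% of those past the filter) and 0.983% were lower by 2-fold or more. In WT 12 of 15 were above 0, with 1 past 2-fold (median 0.45), beside -0.43 and -0.52 for the same members. Of all genes, 49.0% were above 0 there (34.6% of those past the filter) and 0.667% were higher by 2-fold or more. The comparisons share arrays, so the opposite signs are not separate observations.

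Enzymes that build or cap the sugars bound by galectins had their lowest mean on the KO vehicle array, at 6.54. The mean was 6.93 on KO metformin, 6.75 on WT metformin and 6.98 on WT vehicle. The median over genes past the filter was also lowest on KO vehicle, at 6.50. For KO against WT under vehicle 3 of 21 genes were lower by 2-fold or more and none higher (median -0.44), where 4.55% of all genes and 8.12% of genes past the filter were lower. They were the galactosyltransferase B4galt1 (-1.45) and the branching enzymes Mgat5 (-1.17) and Mgat2 (-1.12), of which Mgat5 makes the branch that galectin-3 is known to prefer. For metformin against vehicle in KO 19 of 21 were above 0 (median 0.29), with B4galt3 (1.08) alone past 2-fold. Of genes past the filter, 2.44% were higher by 2-fold or more there. In WT 15 of 21 were below 0 (median -0.32). Over all genes 47.8% were above 0 in KO and 50.7% below 0 in WT, and over genes past the filter, as 17 of the 21 are, 61.7% and 65.3%, so the count in WT was near the share of such genes. The sialyltransferase St6gal1, which caps galactose and blocks galectin binding, was under 5.03 on all 4 arrays.

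Binding partners of galectins were mostly near the gene median. Of 18 measured genes, 0 were past 2-fold for metformin against vehicle in KO (median 0.01) or in WT (median -0.18), and 1 was for KO against WT under vehicle, the semaphorin receptor Nrp1 (-1.05, list median -0.08). Of genes past the filter, as 14 of the 18 are, 3.06%, 1.7% and 10.4% were past 2-fold in either direction in these comparisons. The hyaluronan receptor Cd44 was the highest of the list in the KO response (0.99). Havcr2, the gene of Tim-3, was under 5.03 on all 4 arrays. Of the remaining galectin relatives, the galectin-related gene Lgalsl had 5.94 on KO metformin, 6.03 on KO vehicle, 6.26 on WT metformin and 5.68 on WT vehicle, and Grifin, known from the lens, lay between 5.79 and 6.09. Lgals6, the remaining listed relative, was not analysed here.

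**Figure D4:**
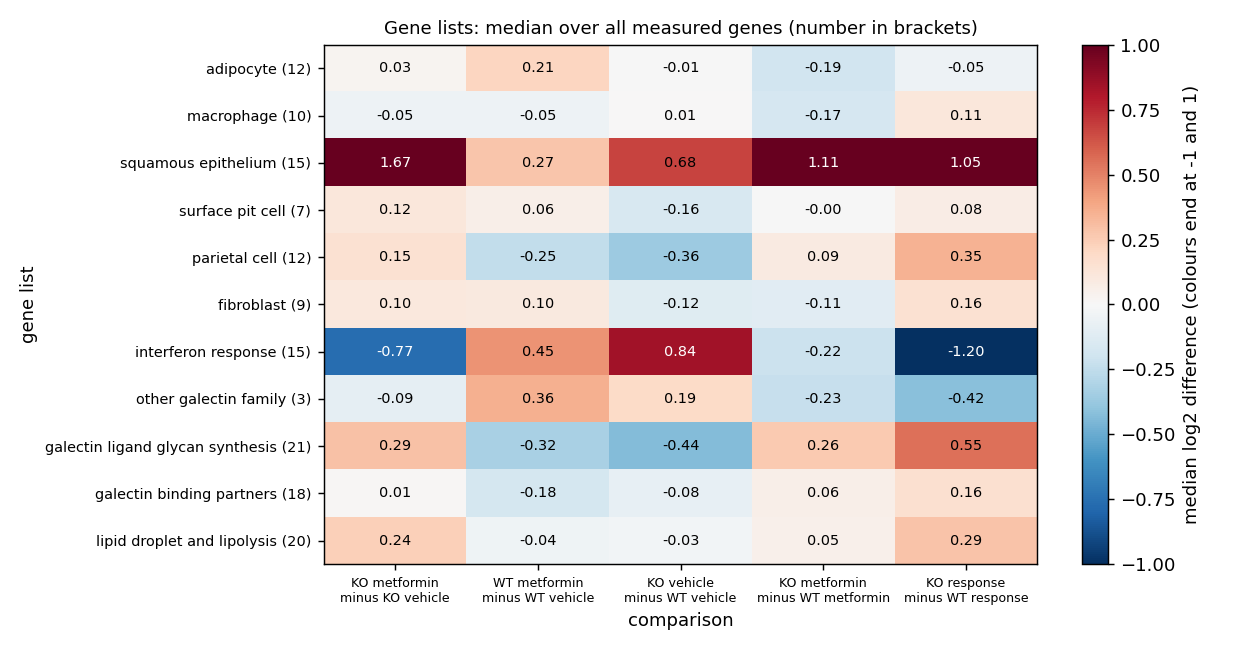
Median log2 difference over all measured genes of each list (rows, number of genes in brackets) in the 5 comparisons (columns), with the value printed in each cell and colour limits at -1 and 1. The squamous list has its highest median, 1.67, for metformin against vehicle in KO, and the interferon list has 0.84 for KO against WT under vehicle.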

How the data were processed

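Biotinylated cDNA was made from total RNA (Affymetrix WT Plus reagents, per the labels' protocols). The deposited values are log2 expression values, for which the submitters' processing notes name Partek and RMA without versions or settings. Their span of 0.77 to 14.02 shows a log2 scale.

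Of 41345 probe sets, 23521 name 1 gene, 1814 several and 16010 are unnamed here. Symbols were updated through a RefSeq table (GRCm38.p6), where 23328 of the 23521 were found. A difference of 1 on the log2 scale (2-fold) was the size rule. An additive limma model (version 3.58.1, R 4.3.3) gave average effects. Its estimates were checked on simulated arrays with genotype shifts and no difference of responses. The check does not cover genes whose KO and WT responses differ. Python 3.11.15, numpy 2.4.6, pandas 2.3.3 and statsmodels 0.14.6 did the rest. The number of arrays limits the precision. The members, 11 gene lists and the rule for named genes (all members, up to 2 highest and 2 lowest of a list, the 5 genes nearest Lgals12) were chosen with earlier results of these data known. Some list genes outside that rule (Mgll, Mgat2, Vps13c, St6gal1, Havcr2, Csf1r, Mpeg1, Adgre1, Cd163, C1qa, Pparg, Trarg1, Col1a2, Lum, Vim, Gkn1 and the defining markers Adipoq, Lep, Atp4b and Gkn2) were named after their values were seen. Alternatives were cyclic loess, median centring, the mean of probe sets, removal of the trend on gene span (lowess, span 0.3), a 1.5-fold rule and, in limma, other filters and an intensity trend.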

Additional observations from a re-analysis of the deposited data

Results flagged for a closer look

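Metformin and vehicle differed in opposite directions in KO and WT for 5 of the 8 genes, as for 65.9% of genes past the filter. With 1 array a group the difference was not tested. The KO response minus the WT response was 3.10 for Lgals12. It was 0.85 for Lgals9 and 0.87 for Lgals3bp, both positive in KO and negative in WT. For Lgals1 it was -0.96, with the KO difference negative and the WT difference positive. For Lgals8 it was 0.083, from 2 differences near 0.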

How the results depend on the processing

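Lgals12 stayed past 2-fold in its 3 large comparisons under cyclic loess, median centring and removal of the trend on gene span. Its difference ran from 2.28 to 2.53 for metformin against vehicle in KO. It ran from -2.70 to -2.32 for KO against WT under vehicle and from 2.88 to 3.26 for the difference of responses. Lgals12 has 1 probe set, so the mean of probe sets could not change it. The counts of members past 2-fold moved where others lie near the limit. For KO against WT under vehicle the count of 1 became 2 after cyclic loess (Lgals1, 1.01) and 2 with median centring (Lgals9, -1.02). For the difference of responses the count of 1 became 2 after cyclic loess (Lgals1, -1.21), 2 with the span trend removed as well (Lgals1, -1.02) and 3 with median centring (Lgals9 1.01, Lgals3bp 1.03). Under a 1.5-fold rule the counts were 2 for metformin against vehicle in WT, 4 for KO against WT under vehicle and 4 for the difference of responses. Genes past the adjusted p for genotype numbered 5, against 3 with no filter, 0 with a filter at the 75th percentile and 8 with an intensity trend. The cause was not tested. Small differences changed sign 16 times among 160 recomputed values, most often for Lgals8. Among the 160, the mean of probe sets could change only the values of Lgals3bp, the only member with 2 probe sets. It gave 1 of the sign changes. No paired analysis was possible because each group holds 1 array, and no array could be left out of a comparison.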
